A study of Mus musculus with 11 samples.

Results

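The comparison described here is that of genotype at 9 months of age, in the cerebral vessels of mice that carried the human NOTCH3 gene. Of the 11 mice of the study, 5 were labelled 9 months. Of these, 3 had the genotype TgN3 R182C (line label Tg350), the model of CADASIL in which the human gene carries a cysteine-altering variant, and 2 had the genotype TgN3 (line label Tg100), the control with the unmutated human gene. The mice were untreated, and mouse Notch3 was counted in every mouse beside the transgene. Each genotype is a transgenic line of its own, so the variant, the insertion site and the dose of the transgene cannot be told apart, and the promoter of the transgene is not given in the sources used here. Mice 1 and 3 of the R182C group were female and mouse 2 was male, and among the TgN3 mice mouse 1 was male and mouse 2 was female. R182C mouse 3 was prepared in batch 20210420 and the other 4 mice in batch 20210225, so that 2 mice of each genotype, a male and a female, share a batch.

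Brain vessel fragments were pulled down on magnetic beads through the endothelial surface protein CD31, digested to single cells and sequenced as droplet libraries, with 1 library per mouse. UMIs are unique molecular identifiers, the counted RNA molecules. A barcode was kept if it held 500 or more genes and no more than 10% of its UMIs were mitochondrial. The 9-month mice gave 31628 of the 61625 kept barcodes of the study. Cells were taken by fixed gates on raw UMIs: at least 4 UMIs of Cldn5, Flt1 and Itm2a together for endothelial cells, at least 4 of P2ry12 and Cx3cr1 with at most 3 of Cldn5 and Flt1 for microglia, and at least 2 of Myh11 with at least 20 of Acta2, Tagln and Myh11 together for smooth muscle. The gates held 20825, 7216 and 1437 cells. UMIs were summed per mouse over each gate, so the mouse is the replicate. Levels below are CPM, the UMIs of a gene scaled to 1000000 UMIs of the gate, listed for R182C mice 1, 2 and 3 and then for TgN3 mice 1 and 2. Differences are log2 fold changes of R182C over TgN3 from edgeR. The SE given with them is the size of the log2 fold change divided by the square root of the F statistic of its test.

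In the brain, NOTCH3 is made mainly by vascular smooth muscle and pericytes, the mural cells that wrap arterioles and capillaries. Its ligands of the Jagged and Delta-like families sit on neighbouring cells, and on binding them the receptor is cleaved and its intracellular part joins RBPJ to turn on target genes such as Heyl, Hey2, Nrarp and Hes1. In CADASIL, variants that add or remove a cysteine let the extracellular part of the receptor accumulate around small arteries, and smooth muscle is lost. Endothelial cells line the same vessels and form the blood-brain barrier, and microglia, the resident macrophages of the brain, are found close to them.

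The gates held the cells they were named for. Pecam1, the gene of CD31, had a UMI in 91.2% to 95.9% of the cells of the endothelial gate, Tmem119, a microglial membrane protein, in 85.6% to 91.7% of the cells of the microglia gate, and Lmod1, an actin nucleator of smooth muscle, in 94.4% to 97.7% of the cells of the smooth muscle gate. The gates were not free of RNA from the other cells. Tmem119 had a UMI in 2.66% to 9.48% of cells in the endothelial gate and in 2.05% to 8.06% in the smooth muscle gate, and Pecam1 in 11.3% to 24.4% of cells in the smooth muscle gate. Between 33 and 67 barcodes per mouse passed more than 1 gate, and no pair of 9-month libraries shared more than 25 barcodes. Most of the former passed the endothelial and smooth muscle gates, 52, 28 and 57 in the R182C mice against 39 and 32. The smooth muscle gate held 372, 245 and 234 cells against 391 and 195. Of these, 307, 213 and 170 against 349 and 161 passed that gate alone, so its endothelial admixture differed between mice.

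The libraries held between 42317151 and 64215050 UMIs, with a median of 4849.5 to 7775 UMIs per kept barcode. The library of TgN3 mouse 2 stood apart by hormone genes of the pituitary. The summed level of Prl, Gh, Pomc and Cga in its microglia gate was 3501 CPM, against 1.89 to 7.02 in the other mice, and in its endothelial gate it was 3841 against 32.3 to 38.9. The summed level of the erythroid genes in the endothelial gate was 16198 in R182C mouse 3 against 5045 to 5903 in the others. For the genes and lists in which these libraries weighed most, values without them are given below.

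The share of kept barcodes in each gate overlapped between genotypes. The endothelial gate took 66.7%, 67.7% and 62.9% of kept barcodes in the R182C mice and 73.6% and 61.9% in the TgN3 mice. The microglia gate took 24.6%, 20.4% and 24.6% against 12.4% and 26.0%. The smooth muscle gate took 3.77%, 5.91% and 3.49% against 9.81% and 2.82%. In each gate the R182C mice lay between the 2 TgN3 mice. The difference of means was -2.02 percentage points for the endothelial, 3.93 for the microglia and -1.93 for the smooth muscle gate, each with p = 0.8 in a two-sided exact permutation test, whose smallest possible p with 3 against 2 mice is 0.2. Without TgN3 mouse 1 the differences were 3.81, -2.87 and 1.57, so their signs rest on that library.

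Human NOTCH3, the transgene, was measured first. In the smooth muscle gate its level was 179, 250 and 240 CPM in the R182C mice and 65.4 and 32.9 in the TgN3 mice. All R182C mice were above both TgN3 mice. The log2 fold change was 2.18 (SE 0.305) with adjusted p = 0.707 in edgeR, and DESeq2 on the same sums gave adjusted p = 3.44e-10. It was 2.10 within batch 20210225, where edgeR did not call it. With sex as a covariate edgeR called it, at 2.33 (adjusted p = 0.049) in the 5 mice and 2.17 (adjusted p = 0.00389) within the batch. Leaving out TgN3 mouse 1 gave 2.78, and edgeR did not call it when any of the other mice was left out. Mouse Notch3, at chr17:32120820-32166852 on the minus strand of mm10, was at 514, 615 and 480 against 658 and 544 in the same cells. Its groups overlapped, and its log2 fold change was -0.13 (SE 0.158, edgeR adjusted p = 1).

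The human gene thus gave a larger share of the NOTCH3 and Notch3 UMIs in the R182C line. It gave 25.9% (95% exact binomial interval 24.1 to 27.7), 28.9% (27.1 to 30.7) and 33.3% (31.0 to 35.7) in the R182C mice. In the TgN3 mice it gave 9.04% (8.06 to 10.1) and 5.70% (4.4 to 7.25), and these intervals cover counting error only. The means were 29.4% ± 3.74 (SD, n = 3) and 7.37% ± 2.36 (SD, n = 2), with p = 0.2 in a two-sided exact permutation test, the smallest it can give. The human and mouse genes are homologous, and how reads that could come from either were shared between them was not tested.

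**Figure D1:**
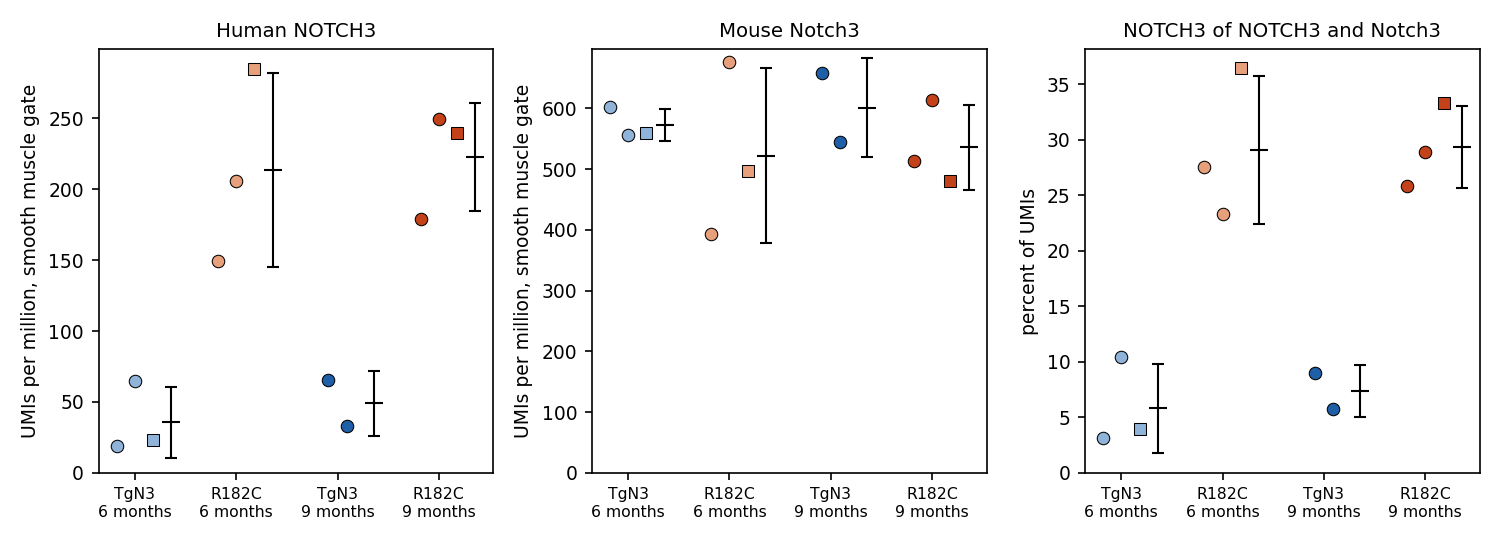
Human NOTCH3 (left) and mouse Notch3 (middle) in CPM of the smooth muscle gate (UMIs scaled to 1000000), and the human share of both in percent (right), by genotype and age. Each symbol is a mouse, circles and squares are different batches within an age, and bars are mean ± SD; at 9 months the 3 R182C mice lie between 179 and 250 for NOTCH3 and the 2 TgN3 mice at 65.4 and 32.9, while Notch3 overlaps.

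Outside smooth muscle the transgene was low, and the R182C mice were again above both TgN3 mice. In the endothelial gate NOTCH3 was at 4.65, 15.2 and 22.4 against 2.41 and 1.45 CPM (log2 fold change 2.94, SE 0.733, edgeR adjusted p = 0.999, DESeq2 adjusted p = 0.00146). In the microglia gate 55, 27 and 51 UMIs were counted in the R182C mice and 3 in each TgN3 mouse, with a log2 fold change of 3.49 (SE 0.581, edgeR adjusted p = 0.433, DESeq2 adjusted p = 0.0189). The pericyte markers were also higher on average in both gates. Their summed level in the endothelial gate was 53.2, 198 and 281 against 95.2 and 42.1, with 7 of 7 markers higher on average and 0 without overlap, and in the R182C mice it was lowest in mouse 1 and highest in mouse 3, as NOTCH3 was. In the microglia gate it was 50.7, 39.7 and 49.1 against 11 and 15.5, with 7 of 7 markers higher and 6 of them not overlapping, as for 3.95% of all genes of that gate. Mouse Notch3 in the endothelial gate was at 9.94, 19.2 and 26.5 against 14.9 and 9.05, with overlap. The human share of NOTCH3 and Notch3 UMIs there was 31.9%, 44.2% and 45.9% against 13.9% and 13.8%. In the microglia gate this share was 34.6%, 34.2% and 40.5% against 7.69% and 6.98%. The part of pericyte RNA in the NOTCH3 level of these gates was not tested. In summed counts the number of cells of a type and the RNA of each cell cannot be told apart.

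In smooth muscle, no gene of the 10868 tested passed an adjusted p of 0.05 in edgeR. At an unadjusted p under 0.05, 201 genes were higher in the R182C mice (1.85% of the genes tested) and 119 were lower (1.09%). DESeq2 called 5 genes, all higher: NOTCH3, Ccl3, Cd86, Gpr34 and Plek. Besides the transgene, the higher genes of lowest p were Coro1a, Cd52, Cd83 and Hmcn1. Coro1a, an actin regulator of blood cells at chr7:126699773-126707787 (mm10, minus strand), was at 12.6, 9.46 and 11.4 against 1.84 and 2.12, without overlap (log2 fold change 2.54, SE 0.383, edgeR adjusted p = 0.514). Cd52, a surface peptide of leukocytes, was at 8.77, 7.36 and 11 against 0.688 and 2.12 (2.94), and Cd83, a surface protein of activated immune cells, at 17.3, 13.7 and 17.2 against 4.82 and 5.84 (1.65). Hmcn1, which encodes the matrix protein hemicentin, was at 57.9, 48.0 and 63.8 against 26.8 and 34.5 (0.94). For each of these 4 genes every R182C mouse was above every TgN3 mouse, as was so for 6.41% of all genes tested.

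Among the lower genes of lowest p in smooth muscle, Trpc6, a cation channel of vascular smooth muscle, was at 24.6, 21.7 and 20.7 CPM against 37.9 and 34.5 (log2 fold change -0.66, SE 0.173, edgeR adjusted p = 1). Ccn3, a secreted matricellular protein, was at 18.4, 19.6 and 22.5 against 34.0 and 32.9 (-0.70). The R182C mice were below both TgN3 mice for these, and also for Zbtb1 (-0.63), Ndn (-1.34) and Isoc2a (-1.76), as for 10.4% of all genes tested.

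The Notch pathway itself had no common direction in smooth muscle. Of 21 tested genes of the list of receptors, ligands and targets, 9 were higher and 12 lower in the R182C mice, and their median log2 fold change was -0.05, against 50.8% of all genes higher. NOTCH3 was the only member at an unadjusted p under 0.05. Among the ligands, Jag1 was at 117, 128 and 131 against 150 and 147 CPM (log2 fold change -0.21, SE 0.124), and Dll1 at 1.75, 1.40 and 3.52 against 4.13 and 4.78 (-0.98, SE 0.552). Among the targets, Nrarp, a feedback inhibitor of the pathway, was at 76.9, 89.0 and 70.0 against 91.3 and 103 (-0.26, SE 0.139). All 3 were below the TgN3 mice in each R182C mouse, and none passed a test (edgeR adjusted p = 1). Of the 21 genes, 4 were lower and 2 higher without overlap, against 10.4% and 6.41% of all genes. The median stayed between -0.11 and -0.05 with each mouse left out.

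Over all barcodes of the gate, the median of the contractile genes was also close to 0. Of 29 tested genes beyond those used to set the gate, 19 were higher in the R182C mice with a median of 0.05, and none had an unadjusted p under 0.05. Among barcodes that passed a single gate 24 of 28 were higher with a median of 0.16. Within batch 20210225 it was 23 of 28 with 0.08. With each mouse left out the median went from -0.02 to 0.10. Cnn1, which encodes calponin, was at 228, 234 and 206 against 212 and 169 (0.26, SE 0.145), with overlap, and Myl6, a myosin light chain, at 4535, 5169 and 4424 against 4547 and 4131 (0.15, SE 0.134). Srf, the transcription factor that drives many contractile genes, was at 20.8, 20.7 and 14.5 against 25.9 and 23.3 (-0.36, SE 0.211). It was below both TgN3 mice in every R182C mouse, as for 10.4% of all genes.

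Among the 35 tested genes of basement membrane, matrix and small vessel disease, 19 were higher and the median was 0.01. Eln, which encodes elastin, was the only one at an unadjusted p under 0.05. Its level was 232, 261 and 223 in the R182C mice, and the TgN3 mice, at a mean of 172 ± 14.2 (SD, n = 2), were both below all of these (log2 fold change 0.51, SE 0.139, edgeR adjusted p = 1). Col18a1 (0.18) did not overlap either, while Tgfb2 was lower without overlap (-0.22). Of all genes 6.41% were higher and 10.4% lower without overlap. Fbn1, the gene of fibrillin-1, was at 11.7, 11.6 and 12.8 against 6.43 and 12.7 (0.46), and the value turned to -0.066 when TgN3 mouse 1 was left out.

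Microglial and inflammatory genes were higher in the smooth muscle gate of the R182C mice. Of 26 tested genes of homeostatic microglia, 25 were higher with a median of 1.03, against 50.8% of all genes, 3 of them at an unadjusted p under 0.05. Gpr34, a lysophosphatidylserine receptor of microglia, was at 38.9, 16.1 and 46.7 against 7.11 and 7.96 (log2 fold change 2.21, edgeR adjusted p = 1, DESeq2 adjusted p = 0.0294). Tyrobp, the adaptor through which TREM2 signals, was at 44.5, 18.6 and 42.7 against 5.97 and 11.7 (2.15). Of 25 inflammatory genes, 19 were higher, 7 of them at an unadjusted p under 0.05 (1.85% of all genes), and the median was 0.27. The chemokine gene Ccl3 was at 77.2, 58.5 and 48.4 against 4.82 and 18.0 (2.70, DESeq2 adjusted p = 0.000389), and Ptgs2, which encodes cyclooxygenase-2, at 24.6, 29.1 and 17.2 against 9.18 and 12.7 (1.20, SE 0.276). None of these groups overlapped, as for 6.41% of all genes.

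The markers of microglia in the smooth muscle gate went in the same direction on average. Their summed level was 635, 323 and 959 against 422 and 318 CPM, with overlap. All 9 of 9 markers were higher on average and 3 of them did not overlap, against 6.41% of all genes. Their part in the lists was not tested. Between 2 and 13 barcodes per mouse passed both gates, 13, 4 and 8 in the R182C mice against 3 and 2. With only the barcodes that passed a single gate, Ccl3 had a log2 fold change of 1.25 and Gpr34 of 1.41, the median of the inflammatory list was 0.11 with 8 of 14 genes higher, and that of the homeostatic list was 0.79 with 19 of 20 higher. Coro1a was at 2.66 in these barcodes. Without R182C mouse 2, which had the lowest microglial level of the R182C mice, edgeR called 17 of 10727 genes. All were higher, among them P2ry12, Cx3cr1, Csf1r, Gpr34, Tyrobp and Coro1a.

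In endothelial cells, 0 of 14032 genes passed in edgeR. At an unadjusted p under 0.05, 138 genes were higher (0.983%) and 264 lower (1.88%), and DESeq2 called 8 higher and 26 lower. Among the higher genes of lowest p, Depp1, a gene induced by FOXO transcription factors, was at 44.3, 44.8 and 48.0 against 33.1 and 31.9 CPM, with no overlap (log2 fold change 0.57, SE 0.0967, edgeR adjusted p = 0.999, DESeq2 adjusted p = 0.00513). Slc10a1, a bile acid transporter, was at 17.7, 14.2 and 15.6 against 10.6 and 10.2 (0.69, SE 0.133), and Arhgap15, a GTPase-activating protein of Rac, at 10.5, 9.67 and 11.8 against 6.41 and 4.80 (1.00, SE 0.198). The R182C mice were above both TgN3 mice for all 3, as for 3.24% of all genes. Hbb-y, an embryonic globin, was at 7.74, 9.60 and 5.05 against 2.94 and 2.54 (1.51, DESeq2 adjusted p = 0.00709), and Cd28, a co-receptor of T cells, stayed under 1 in every mouse (3.04). The summed level of the erythroid markers, which include adult globins, was also higher on average in the R182C mice. Of these markers 3 of 5 did not overlap, against 3.24% of all genes, and their part in Hbb-y was not tested. Without R182C mouse 3, which had the highest erythroid sum and the lowest Hbb-y of the R182C mice, the log2 fold change of Hbb-y was 1.70.

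**Figure D2:**
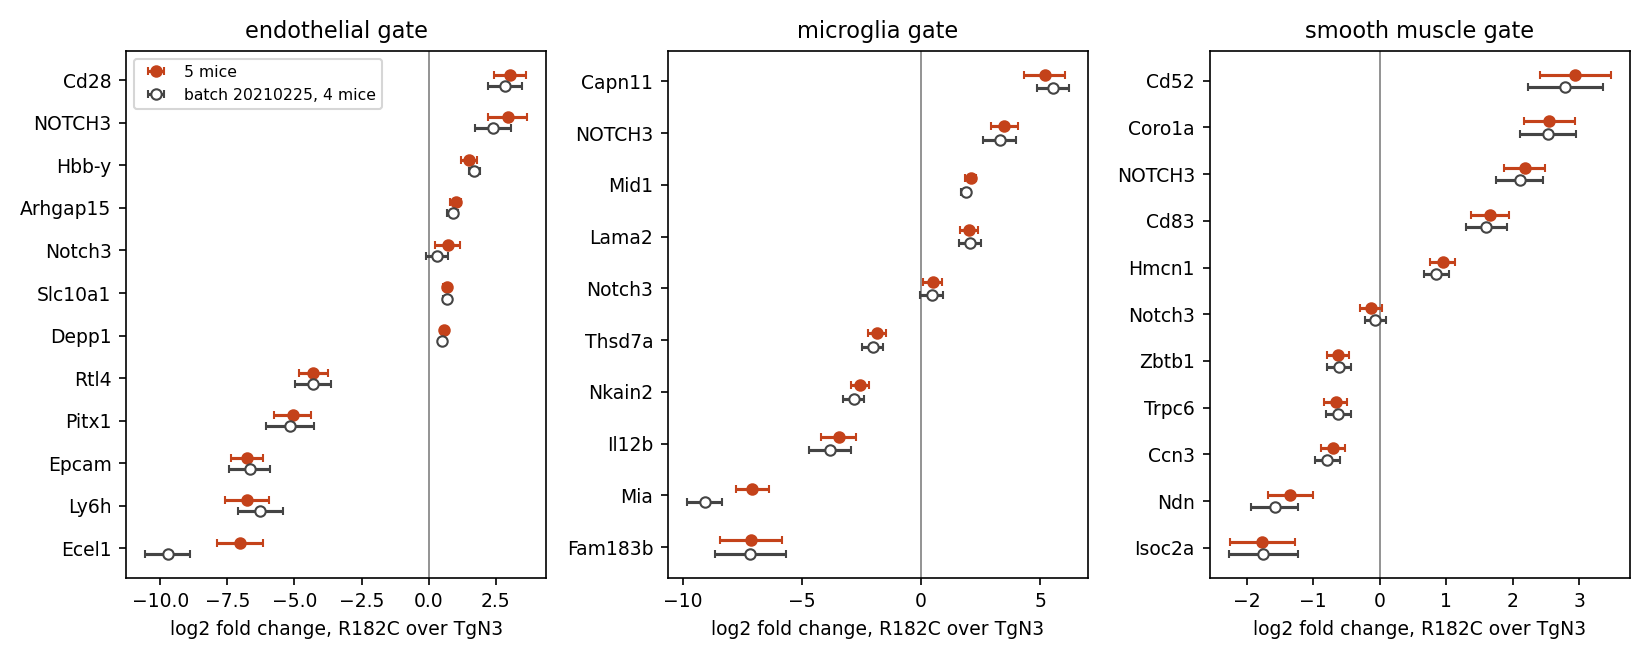
Log2 fold changes of R182C over TgN3 (horizontal axis, with SE) for the transgene, mouse Notch3 and the higher and lower genes of lowest p shown for the endothelial, microglia and smooth muscle gates. Filled circles are the fit to the 5 mice and open circles the fit to the 4 mice of batch 20210225; each gene has the same sign in both fits, and Notch3 in smooth muscle lies near 0 at -0.13.

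The endothelial genes lower in the R182C mice were led by genes close to 0 in the R182C libraries. Epcam, an epithelial adhesion protein, was at 0.0441, 0.143 and 0.0627 against 5.39 and 13.2 (log2 fold change -6.76, SE 0.595, edgeR adjusted p = 0.435, DESeq2 adjusted p = 7.45e-17). Pitx1, a homeobox factor of the pituitary and hind limb, was at 0.0882, 0 and 0.0627 against 2.01 and 2.13 (-5.06), and Ly6h (-6.77), Ecel1 (-7.03) and Rtl4 (-4.29) had the same order of the groups. Without TgN3 mouse 2 these 5 log2 fold changes were between -7.27 and -4.01, that of Epcam being -5.99. The R182C mice were below both TgN3 mice for each, as for 16.3% of all genes. The pituitary hormone sum was high in TgN3 mouse 2, and within it Cga was at 14.1 in all kept barcodes of TgN3 mouse 1 against 0.0323, 0 and 3.16 in the R182C mice. The part of pituitary RNA in these genes was not tested. Without TgN3 mouse 1, edgeR called 23 endothelial genes, 22 of them lower and including Gh, Prl and Cga. With each of the other mice left out it called none.

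The selectins had the largest differences of the endothelial inflammatory list. Sele and Selp encode E-selectin and P-selectin, which activated endothelium shows at its surface to catch rolling leukocytes, and they lie close together at chr1:164048234-164057677 and chr1:164115264-164150026 on the plus strand of mm10. Because both genes were low in the TgN3 mice and are textbook targets of NF-κB, the 250 bases before each start are shown, from RefSeq on GRCm38.p6 (chr1:164047984-164048233 and chr1:164115014-164115263, plus strand). Capitals mark a match to the loosest spelling of the κB motif, GGG and CC with any 5 bases between them, searched on both strands:
Sele: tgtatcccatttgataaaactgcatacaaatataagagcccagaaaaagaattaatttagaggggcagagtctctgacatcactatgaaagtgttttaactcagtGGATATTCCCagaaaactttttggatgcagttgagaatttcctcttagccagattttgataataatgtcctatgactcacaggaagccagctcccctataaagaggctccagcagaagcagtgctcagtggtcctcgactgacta
Selp: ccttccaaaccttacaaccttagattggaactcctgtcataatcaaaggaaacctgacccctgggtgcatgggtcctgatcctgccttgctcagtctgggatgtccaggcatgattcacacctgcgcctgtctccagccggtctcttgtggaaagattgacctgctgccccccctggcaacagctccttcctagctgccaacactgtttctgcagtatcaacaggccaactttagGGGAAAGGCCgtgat
Each window held 1 match. Of all 32851 promoter windows of this length 45.8% held at least 1, so a match describes the letters only. Whether either match is a binding site was not tested.

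Sele was at 2.58, 2.44 and 6.96 CPM in the R182C mice and at 0.279 and 0.483 in the TgN3 mice, with no overlap (log2 fold change 3.47, SE 0.697, edgeR adjusted p = 0.999, DESeq2 adjusted p = 0.000357). Selp was at 1.98, 3.40 and 7.33 against 0.310 and 0.548 (3.39, SE 0.725, edgeR adjusted p = 0.999, DESeq2 adjusted p = 0.000869). R182C mouse 3, the mouse of the other batch, was the highest for both, and within batch 20210225 the log2 fold changes were 2.76 and 2.69. No fit that left out a mouse called either gene in edgeR.

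Of 32 tested inflammatory genes, 31 were higher in the R182C mice, and their median log2 fold change was 0.45, against 50.1% of all genes. An unadjusted p under 0.05 with a higher level was reached by 7 of them (0.983% of all genes), and in 8 the R182C mice were above both TgN3 mice (3.24% of all genes). Ptgs2 was at 87.7, 67.3 and 120 against 51.2 and 44.2 (1.02, SE 0.272), and Angptl4, a secreted inhibitor of lipoprotein lipase, at 7.80, 8.49 and 9.81 against 5.32 and 6.73 (0.61, SE 0.187). Vcam1, the integrin ligand of activated endothelium, was at 228, 177 and 261 against 175 and 141 (0.57), also without overlap. The median was 0.54 within batch 20210225, 0.14 without TgN3 mouse 1, 0.26 without R182C mouse 1 and 0.86 without TgN3 mouse 2. Its size thus depended on which TgN3 mouse was kept, and its sign did not. Of the venous genes, a list that shares Vcam1, Icam1, Lcn2, Lrg1 and Ackr1 with the inflammatory list, 13 of 16 were higher with a median of 0.22, which was 0.033 without TgN3 mouse 2. Of the arterial genes, 13 of 20 were lower with a median of -0.09, which was 0.15 without TgN3 mouse 1. The part of venous cells in the selectin and inflammatory levels was not tested.

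The genes of antigen presentation were likewise higher on average, 21 of 21 with a median of 0.30, but none had an unadjusted p under 0.05. H2-Eb1, a class II chain, was at 11, 8.06 and 12.0 against 3.22 and 9.21 (0.82, SE 0.446), and Tap1, a peptide transporter of the class I pathway, at 40.4, 34.4 and 22.5 against 24.7 and 28.9 (0.35, SE 0.229). The groups of all 21 genes overlapped, and the median was 0.05 without TgN3 mouse 1 and 0.06 without R182C mouse 1. Genes of homeostatic microglia, counted as RNA from other cells in this gate, were higher in 25 of 26 with a median of 0.58, which was 0.02 without TgN3 mouse 1 and 1.58 without TgN3 mouse 2. The summed level of the microglia markers here was 968, 424 and 1102 against 517 and 688 with overlap, and its part in the inflammatory and antigen genes was not tested.

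The blood-brain barrier list had a median close to 0, with 20 of 32 genes higher and a value of 0.05. Abcc4, an efflux transporter, was its only member at an unadjusted p under 0.05, at 686, 479 and 585 against 410 and 475 (0.48, SE 0.181). Plvap, which encodes the diaphragm protein of fenestrated endothelium and is low in the mature barrier, was at 45.5, 113 and 66.1 against 93.6 and 279 CPM. Its groups overlapped, TgN3 mouse 2, the mouse with pituitary RNA, was the highest, and the log2 fold change went from -1.24 to -0.27 without it.

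Of 38 endothelial genes of matrix and small vessel disease, 25 were lower, with a median of -0.04 that was 0.05 without TgN3 mouse 1. Bgn, which encodes the proteoglycan biglycan, was at 12.4, 16.6 and 15.6 against 30.9 and 29.0 (log2 fold change -0.94, SE 0.145, edgeR adjusted p = 0.999, DESeq2 adjusted p = 0.000663). Ltbp1, a binding protein that stores latent TGF-β in the matrix, was at 19.4, 24.1 and 19.3 against 30.4 and 61.5 (-1.06, SE 0.28). Both were below the TgN3 mice in every R182C mouse, as were 4 of the 38 genes and 16.3% of all genes. In the other direction 2 of the 38 did not overlap, against 3.24% of all genes. Bgn changed little when a mouse was left out (-1.01 to -0.82), while Ltbp1 went from -1.48 to -0.49.

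Hypoxia and glycolysis genes were higher in 26 of 29, with a median of 0.15 that stayed between 0.10 and 0.20 with each mouse left out. Adm, the vasodilator adrenomedullin, was at 19.6, 21.3 and 17.4 against 15.1 and 17.0 (0.35, SE 0.104), and Bnip3, a mitophagy receptor, at 38.8, 40.0 and 47.5 against 35.3 and 35.5 (0.33, SE 0.131). For both the groups did not overlap and the edgeR adjusted p was 0.999. Of the 29 genes, 5 were higher and 1 lower without overlap, against 3.24% and 16.3% of all genes. Of 21 Notch pathway genes, 13 were higher with a median of 0.03.

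Genes of the respiratory chain were examined because the study addressed mitochondria. Of 76 nuclear genes of complexes I to V, 61 were higher in endothelial cells with a median of 0.03, 34 of 75 were higher in microglia with a median of -0.01, and 52 of 76 were higher in smooth muscle with a median of 0.05. Within batch 20210225 only 35 of 76 were higher in endothelial cells (median -0.0063) and 18 of 75 in microglia (-0.073), but 55 of 76 in smooth muscle (0.041). Among barcodes that passed a single gate the counts were 60 of 76 (0.034), 29 of 75 (-0.026) and 69 of 76 (0.11). The smooth muscle median was -0.0051 without R182C mouse 2. With each mouse left out the microglial median went from -0.12 without TgN3 mouse 1 to 0.14 without TgN3 mouse 2. In the 5 mice none of these genes had an unadjusted p under 0.05. The 13 subunits encoded in mitochondrial DNA, tested in the fit that kept mitochondrial genes, were higher in 13 of 13, 12 of 13 and 11 of 13, with medians of 0.18, 0.19 and 0.07, against 50.2%, 51% and 50.3% of all genes in that fit. No subunit reached an unadjusted p under 0.05. In the endothelial gate their summed level was 33935, 37625 and 35586 against 33449 and 31904 CPM, with the R182C mice above both TgN3 mice. Barcodes were kept by their mitochondrial share, so the filter bounds the levels of these subunits. In the smooth muscle gate the median share was 6.57% to 7.28%, under a limit of 10%. This list was not fitted at another limit, within batch 20210225 or with a mouse left out. Among the genes of mitochondrial DNA maintenance in endothelial cells, 7 of 17 were higher, and Polg2, a subunit of the polymerase that copies mitochondrial DNA, was at 76.9, 69.7 and 70.9 against 45.2 and 64.8 (0.47, SE 0.156), without overlap. In microglia Polg2 was at 22.6, 22.8 and 28.5 against 26.7 and 16.4 (0.29, SE 0.209), with overlap.

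In microglia, 0 of 11874 genes passed in edgeR, 94 (0.792%) were higher and 129 (1.09%) lower at an unadjusted p under 0.05, and DESeq2 called 7 higher and 8 lower. Mid1 came closest. It encodes a RING-finger ubiquitin ligase of microtubules, lies at chrX:169685199-170005736 on the plus strand of mm10, and in laboratory mice spans the boundary of the pseudoautosomal region. Its level was 161, 142 and 228 against 42.7 and 43.6 CPM. Every R182C mouse was above both TgN3 mice, in males and in females. The log2 fold change was 2.08 (SE 0.229, edgeR adjusted p = 0.0797, DESeq2 adjusted p = 4.08e-14), and within batch 20210225 it was 1.87 (edgeR adjusted p = 0.0466). With each mouse left out it stayed between 1.87 and 2.21. It was called in edgeR without R182C mouse 2 (adjusted p = 0.0367), without R182C mouse 3 (0.0466) and without TgN3 mouse 1 (0.0352), and not without R182C mouse 1 (0.0841) or TgN3 mouse 2 (0.173).

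Other microglial genes had fewer UMIs. Capn11, a calpain protease, was at 10.9, 6.82 and 3.10 against 0 and 0.244 (5.18, SE 0.873), and Lama2, the laminin α2 chain of basement membranes, at 5.26, 5.66 and 5.05 against 1.12 and 1.47 (2.00, SE 0.381). In the other direction Mia, a small secreted protein, was at 0, 0.145 and 0.689 against 25.3 and 46.8 (-7.08, SE 0.689, edgeR adjusted p = 0.168), and Nkain2, a membrane protein, at 1.83, 0.870 and 2.30 against 11.8 and 9.61 (-2.58). Groups did not overlap in any of these genes, as for 3.95% of all genes in the higher and 6.75% in the lower direction. Fam183b had no UMI in the R182C mice and 3.09 and 1.38 CPM in the TgN3 mice, at least 21.0-fold lower when 3 counts over the R182C group are taken as the floor. Thsd7a (-1.84) and Il12b (-3.46), which encodes the p40 subunit of interleukins, were also lower without overlap. Without TgN3 mouse 2 the log2 fold changes were -6.42 for Mia, -2.66 for Nkain2, -4.17 for Il12b and -1.18 for Thsd7a.

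The genes of disease-associated microglia were slightly higher, 24 of 27 with a median log2 fold change of 0.14, against 51.6% of all genes. Spp1, which encodes osteopontin, was the only member at an unadjusted p under 0.05, at 37.0, 10.2 and 14.1 against 3.37 and 5.05 CPM (2.26, SE 0.708, edgeR adjusted p = 1, DESeq2 adjusted p = 0.0487). The R182C mice were above the TgN3 mice, with mouse 1 the highest, and the value was 1.48 without that mouse. Csf1 was at 146, 127 and 109 against 63.2 and 117 (0.53), and Lyz2, the macrophage lysozyme, at 280, 347 and 298 against 299 and 241 (0.26), both with overlap. The median of the list was 0.06 without TgN3 mouse 1 and 0.27 without TgN3 mouse 2. Of 25 inflammatory genes tested in microglia, 19 were higher and 6 lower, with a median of 0.22. That median was -0.10 without TgN3 mouse 1 and 0.84 without TgN3 mouse 2.

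Of 24 homeostatic genes tested beyond the gate genes, 19 were higher with a median of 0.09, and none had an unadjusted p under 0.05. Within batch 20210225, which leaves out R182C mouse 3, 12 of 24 were higher with a median of 0.0083. C1qa, a chain of the complement component C1q, was at 4117, 4403 and 5006 against 3806 and 4394 (0.18, SE 0.226), and Spi1, the transcription factor PU.1, at 322, 404 and 345 against 319 and 350 (0.14, SE 0.191). Both overlapped.

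Interferon-stimulated genes were lower in 19 of 29, with a median of -0.07. Rsad2, the antiviral enzyme viperin, was at 3.42, 2.47 and 3.44 against 3.09 and 14.7 (-1.58), Ifit3b at 1.43, 0.870 and 0.919 against 1.40 and 4.15 (-1.41), and Iigp1, an immunity-related GTPase, at 3.82, 1.45 and 1.84 against 3.37 and 7.74 (-1.22). In all 3 it was TgN3 mouse 2 that was high while TgN3 mouse 1 lay among the R182C mice. Without TgN3 mouse 2 the log2 fold change of Rsad2 was 0.15 and the median of the list 0.11. Ifitm1 went the other way, at 2.23, 3.48 and 1.38 against 0.281 and 0.570 (2.28), without overlap.

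Mural genes were higher on average in the microglia gate of the R182C mice. Of 31 contractile and mural channel genes, 29 were higher with a median of 0.55. Rgs5, a pericyte regulator of G protein signalling, was at 38.9, 32.0 and 24.6 against 1.97 and 9.45 (2.28, DESeq2 adjusted p = 0.00213). Abcc9 and Kcnj8, the subunits of the pericyte potassium channel, had log2 fold changes of 3.5 and 3.66, and Vtn, the pericyte gene of vitronectin, was at 22.5, 15.8 and 21.4 against 0.843 and 8.39 (1.86). All 4 were without overlap, as for 3.95% of all genes, and had an edgeR adjusted p of 0.889 or more. The summed pericyte level given above was higher too. The summed level of the smooth muscle markers overlapped, at 271, 212 and 306 against 415 and 44.1 CPM, with TgN3 mouse 1 the highest. The median of the contractile list rested on the TgN3 mice, at 1.99 without TgN3 mouse 1 and -0.18 without TgN3 mouse 2. It was 0.13 with 16 of 22 genes higher among barcodes that passed a single gate. Of 33 matrix genes 28 were higher with a median of 0.51, which was 1.15 without TgN3 mouse 1, 0.032 without TgN3 mouse 2 and 0.26 among barcodes of a single gate, where 20 of 27 were higher. Of 18 Notch pathway genes 14 were higher with a median of 0.25. That median was 0.29 without TgN3 mouse 1, 0.13 without TgN3 mouse 2 and 0.16 among barcodes of a single gate, where 10 of 15 were higher. Heyl, a Notch target of mural cells, was at 1.99, 1.31 and 1.72 against 0.281 and 0.163 (3.06, SE 0.766, edgeR adjusted p = 1). Its levels in the TgN3 mice rest on few molecules. Timp3, a metalloproteinase inhibitor, had a log2 fold change of 0.59, which was -0.15 in the barcodes of a single gate.

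**Figure D3:**
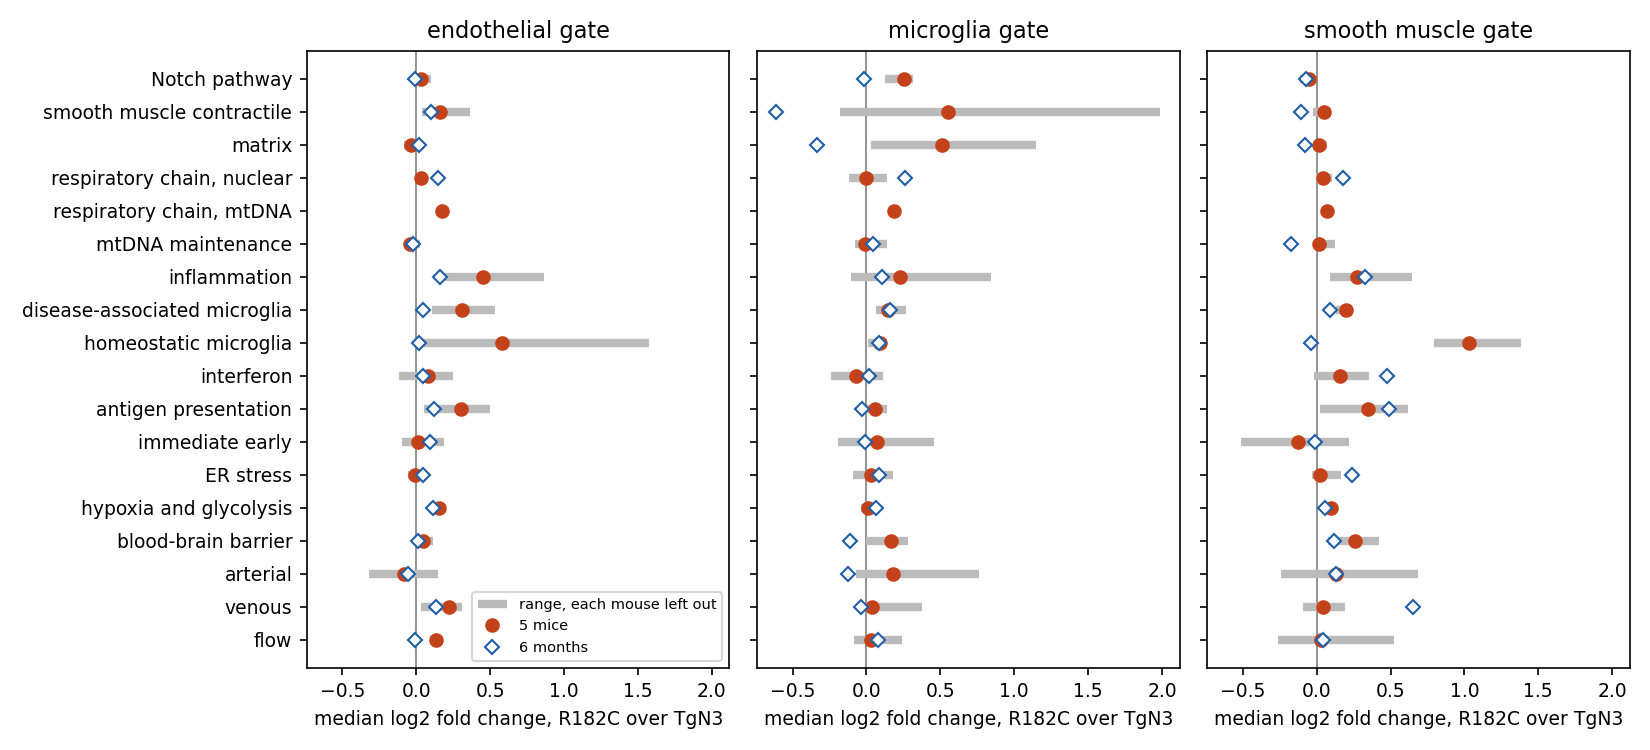
Median log2 fold change of R182C over TgN3 (horizontal axis) of each gene list in the endothelial, microglia and smooth muscle gates. Filled circles are the 5 mice of 9 months, grey bars the range with each of them left out, and open diamonds the 6 mice of 6 months; the range is widest for contractile genes in the microglia gate (-0.18 to 1.99), and the mitochondrial DNA list has only its main value.

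The 6 mice of 6 months, 3 of each genotype from batches 20210616 and 20210618, were used to ask which of these differences belonged to 9 months. The difference between the 9-month and the 6-month genotype effect was tested in a fit to all 11 mice. No gene passed in edgeR in any gate, of 14558, 12038 and 11043 tested, with 353, 282 and 240 genes at an unadjusted p under 0.05. DESeq2 called 4 in the endothelial gate, 6 in the microglia gate and 0 in the smooth muscle gate. No batch held both ages, so the levels at 6 and 9 months cannot be compared apart from the batch.

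NOTCH3 in smooth muscle was higher in the R182C mice at both ages. At 6 months it was at 149, 206 and 285 CPM in the R182C mice and at 19.2, 64.5 and 22.8 in the TgN3 mice (log2 fold change 2.47, SE 0.54), and the difference between the ages was -0.28 (SE 0.724, edgeR adjusted p = 1). Mid1 did not show its 9-month difference at 6 months. There it was at 172, 160 and 188 in the R182C mice and at 129, 175 and 116 in the TgN3 mice, which overlapped (0.34, SE 0.167). The difference between the ages was 1.76 (SE 0.3, edgeR adjusted p = 0.351), and DESeq2 called it. The 2 TgN3 mice of 9 months had the lowest Mid1 of all 11 mice.

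The selectins had no common order at 6 months. Sele was at 9.23, 6.37 and 3.35 in the R182C mice and at 5.51, 0.965 and 16.6 in the TgN3 mice, and Selp at 5.59, 6.30 and 6.26 against 8.33, 3.95 and 39.1. The groups overlapped, and the difference between the ages was 3.68 (SE 1.42) for Sele and 4.80 (SE 1.34) for Selp, both with an edgeR adjusted p of 1. For both genes the 2 TgN3 mice of 9 months were the lowest of the study, while the R182C mice of 9 months lay within the range of the 6-month mice or, for Selp, partly below it. Coro1a in smooth muscle was at 5.19, 1.38 and 8.82 against 3.34, 1.35 and 9.86 at 6 months, with overlap (0.54, SE 0.628).

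**Figure D4:**
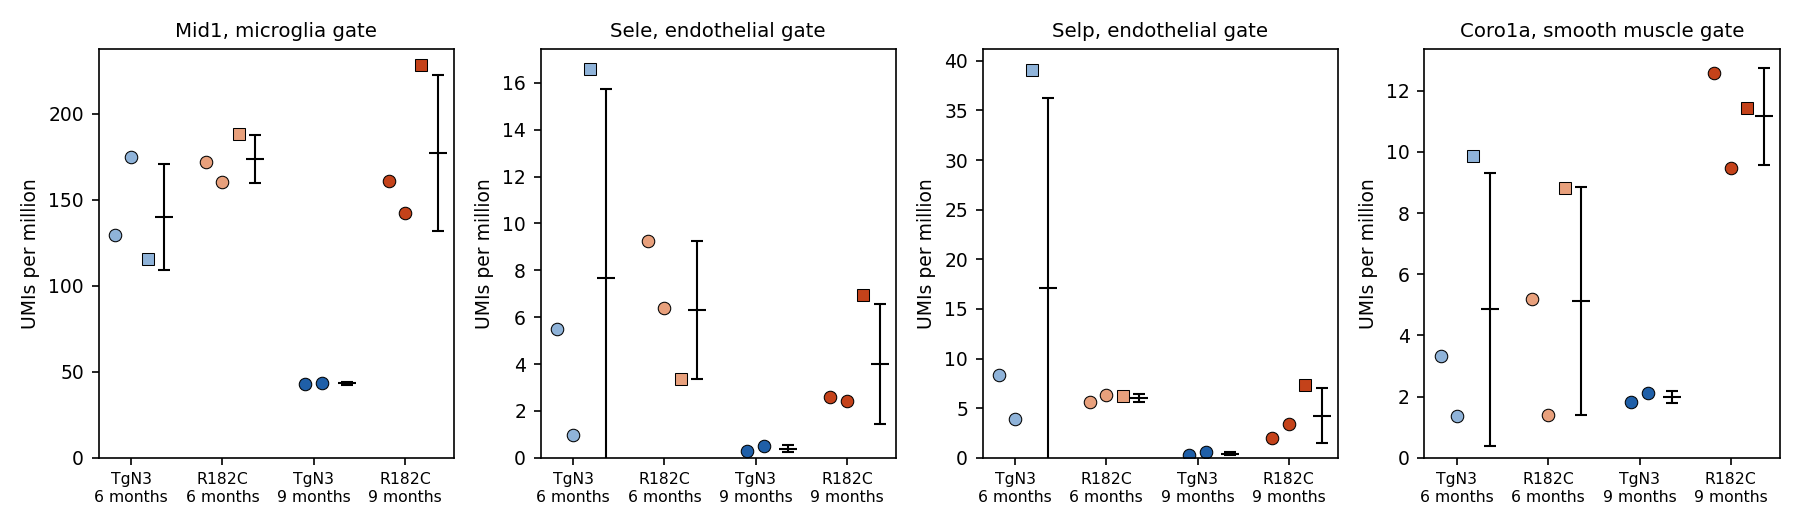
Mid1 in the microglia gate, Sele and Selp in the endothelial gate and Coro1a in the smooth muscle gate, in CPM (vertical axes), by genotype and age. Each symbol is a mouse, circles and squares are different batches within an age, and bars are mean ± SD, with lower ends below 0 not drawn; for Mid1 the 2 TgN3 mice of 9 months, at 42.7 and 43.6, lie below the other 9 mice.

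Some list medians had the same sign at both ages and others did not. The endothelial inflammatory list was higher in 22 of 31 genes at 6 months with a median of 0.16, and the antigen list in 19 of 21 with 0.12. The homeostatic genes in the smooth muscle gate were higher in 7 of 23 with a median of -0.04 at 6 months, and the contractile genes in the microglia gate had a median of -0.61 and the matrix genes there of -0.33, below 0 where the 9-month medians were above it. The nuclear respiratory genes had larger medians at 6 months, at 0.14 in endothelial cells with 73 of 76 higher, 0.26 in microglia with 74 of 75 higher and 0.18 in smooth muscle with 69 of 76 higher. The difference between ages was not tested for any list.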

How the data were processed

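Reads were mapped by the authors to mm10 with human NOTCH3 added, using Cell Ranger 7.0.0 per the submitters' processing notes. The deposited count matrices hold whole UMI counts per gene and called barcode, without normalization, for 11 libraries and 32287 features. No column was left unmapped (0). The members and gene lists were chosen with earlier results of these data known.

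The filter kept barcodes of 500 or more genes with no more than 10% of UMIs from mitochondrial genes. No doublet caller was run, and barcodes in more than 1 gate were counted and left out in an alternative. Counts were summed per mouse and gate, without ribosomal, mitochondrial, Gm and Rik genes, and tested with edgeR 4.0.16 (filterByExpr, TMM, robust quasi-likelihood test, two-sided, Benjamini-Hochberg over all genes tested, threshold 0.05) in R 4.3.3. DESeq2 1.42.0 was the alternative tool. The study's methods left 1 unnamed control library out of their microglia. No mouse was left out here beyond the fits that leave out each in turn. The labels do not say that the mice were litter mates or how they were assigned to batches. Shares were compared with exact permutation tests over the 10 splits of 3 against 2 mice (Python 3.11.15, scipy 1.17.1).

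Named genes were NOTCH3, Notch3, the 5 genes of lowest p in each direction per gate and up to 4 genes of lowest p per described list. Some of the genes this rule names are not reported here. Vcam1, Cga, Prl, Gh and genes called only under an alternative were named after their values were seen. Gene positions are from GENCODE vM21. The count tests were checked on simulated data.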

Additional observations from a re-analysis of the deposited data

How the results depend on the processing

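Over the alternatives, 1608 of the values of the 106 named genes kept sign and side of the threshold, 62 passed it and 5 changed sign. With each mouse left out, Notch3 in microglia ranged from -0.18 (without TgN3 mouse 2) to 1.31, Rsad2 in microglia from -2.23 to 0.15 (without TgN3 mouse 2), Notch3 in smooth muscle from -0.25 to 0.0011 (without TgN3 mouse 1) and Fbn1 in smooth muscle from -0.066 (without TgN3 mouse 1) to 0.94, and Timp3 in microglia was -0.15 among barcodes of 1 gate. The cause was not tested. The numbers of called genes, 0 in each gate in edgeR, were 34, 15 and 5 in the endothelial, microglia and smooth muscle gates with DESeq2. Sex as a covariate gave 1, 4 and 1, and batch 20210225 alone with sex gave 1, 4 and 4. In microglia no filter on low counts gave 3, at most 20% mitochondrial UMIs 3, barcodes of 1 gate 2 and batch 20210225 alone 2, and in smooth muscle no filter gave 1. With each mouse left out the counts were 0 to 23, 0 to 49 and 0 to 17. For the difference between ages DESeq2 gave 4 endothelial and 6 microglial genes, and leaving out mice gave 0 to 18 and 0 to 2.

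Mice share replicate numbers across genotypes, but nothing in the labels pairs them, and only 2 pairs exist. The deviations of same-numbered mice correlated over genes at 0.005 and -0.064 in the endothelial, 0.087 and 0.13 in the microglia and -0.017 and -0.27 in the smooth muscle gate. With the replicate number as a block edgeR called 0, 5 and 0 genes, and 0, 1 and 2 for the difference between ages. The crossed pairing within the batch is the fit with sex as a covariate given above.

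Removing R182C mouse 3 leaves the 4 mice of batch 20210225, so its batch and that mouse cannot be told apart. With 3 against 2 mice the exact tests cannot pass 0.05. Genes below about 1 CPM rest on few molecules. Where a fit leaves 1 TgN3 mouse, that mouse is assumed to vary like the R182C mice.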

Other observations

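Hormone genes of the pituitary were counted in all kept barcodes of TgN3 mouse 2 of 9 months at 10489 CPM for Prl (562962 UMIs) and 11686 for Gh (627246 UMIs). In each of the other 9-month mice at most 2 Prl and at most 4 Gh UMIs were counted. In the same library Cga was at 713, Pomc at 264 and the choroid plexus gene Ttr at 8568, against 565 to 2640 for Ttr in the other 9-month mice. The labels do not mention pituitary tissue.

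The neutrophil alarmins S100a8 and S100a9 were at 31.0 and 41.0 CPM in all kept barcodes of R182C mouse 1 and at no more than 1.12 and 2.50 in the other 9-month mice.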
